A study of Mus musculus with 11 samples.

Results

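Ribosome biogenesis genes encode the proteins that transcribe, cut, modify and fold ribosomal RNA and assemble it with ribosomal proteins into the small and large ribosomal subunits. The set described here held 45 such genes, a list of symbols for known factors of this process chosen with earlier results of these data known. Each was matched by its Ensembl identifier to 1 of 49585 entries of a gene count table. All 45 also passed the filter on low counts that left 13448 genes for testing, and the smallest count of any of them in any library was 13, for Gar1. Levels were compared in haematopoietic stem cells of C57BL/6 mice, sorted from bone marrow as lineage-negative, c-Kit+ Sca-1+, CD48- and CD150+ cells and split by CD41, the platelet integrin alpha chain encoded by Itga2b, which also marks a share of stem cells. Control mice had received rabbit serum, and the depleted mice were taken 24 h after platelet depletion. Each library came from the RNA of 1000 cells pooled from 3 mice. There were 2 libraries of control CD41+ cells and 3 of each of the other groups (control CD41-, depleted CD41- and depleted CD41+). Age and sex of the mice are not used here. Because cells were pooled before sequencing, p-values measure the spread between libraries of pooled cells, each treated as independent.

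Ribosome production starts in the nucleolus, where RNA polymerase I copies the ribosomal DNA into a long precursor. Small nucleolar ribonucleoprotein particles (snoRNPs) of the box C/D and box H/ACA kinds guide the modification of that precursor, a large complex called the small subunit processome cuts and folds its first portion, and other factors mature the pre-small and pre-large subunits on their way to the cytoplasm. Resting haematopoietic stem cells are known for a low rate of protein synthesis, and ribosome production is generally raised when cells enter growth and division.

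The libraries held between 0.974 M and 9.95 M counts, with a median of 3.88 M. Levels are given as CPM, that is counts relative to the TMM-scaled total of the library, and differences as log2 fold changes ± SE from the quasi-likelihood test of edgeR, called at a Benjamini-Hochberg adjusted p below 0.05 over all 13448 genes. Kit, Ly6a and Slamf1, the genes of c-Kit, Sca-1 and CD150, were detected in all 11 libraries, and so was Cd48, at 12.9 to 106 CPM. Itga2b stood at 37.3 to 97.8 CPM in CD41- and at 170.4 to 425 CPM in CD41+ libraries. These are bulk samples, so a change in the number of cells that express a gene and a change of RNA per cell cannot be told apart. For 8 of the 45 genes another gene of at least 95% identity over at least 200 bases exists. Counts on those copies that were in the count table came to at most 6.52% of the member's own (Imp3). Some copies of Npm1, Nop56, Wdr12 and Ddx18 had no entry there, so their reads are not covered by this share. Of the 45 genes 20 overlap a gene on the opposite strand, in 4 cases by more than 300 bases (Bysl, Emg1, Tsr1 and Gtpbp4), and whether counting used strand was not given in the sources used here. The values of these genes are therefore less certain.

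Summed over the 45 genes, transcripts of ribosome biogenesis factors were lowest in control CD41- cells and highest in depleted CD41+ cells. The sum was 6474, 5919.6 and 5495 CPM in the control CD41- libraries and 6535 and 6443 CPM in the control CD41+ libraries. After platelet depletion it was 8245, 6766 and 8089 CPM in CD41- and 9450.0, 8978 and 9330.0 CPM in CD41+ libraries. Every depleted library thus lay above every control library, with depleted CD41- replicate 2 closest to the controls. Because Npm1 and Ncl supply much of this sum, each gene was also compared with its own mean over the 11 libraries. The median deviation of the 45 genes was -0.28 ± 0.09 on the log2 scale in control CD41- (SD, n = 3), -0.06 ± 0.03 in control CD41+ (n = 2), 0.02 ± 0.11 in depleted CD41- (n = 3) and 0.29 ± 0.09 in depleted CD41+ libraries (n = 3). In depleted CD41+ replicates 2 and 3, 44 and 42 of the 45 genes stood above their own mean, against 34 in replicate 1, the shallowest library. Depleted CD41- replicates 1 and 3 had 33 and 32 genes above the mean and replicate 2 had 11, within the range of 5 to 20 in the control libraries.

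**Figure D1:**
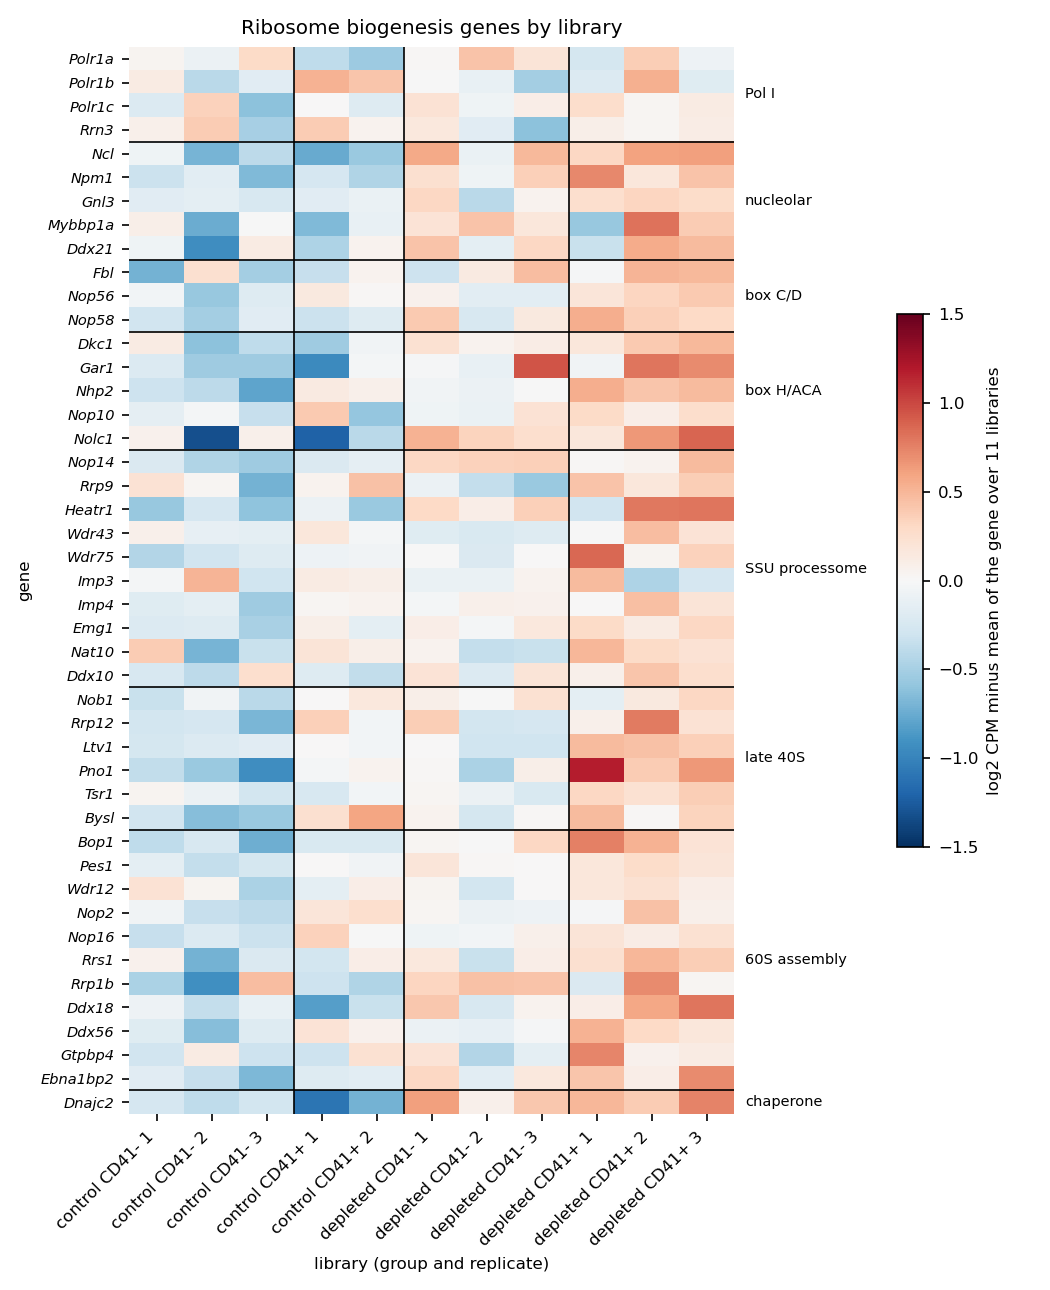
Level of each of the 45 genes (rows, grouped by role) in each of the 11 libraries (columns, grouped by treatment and CD41), as log2 CPM minus the gene's mean over the 11 libraries. Control CD41- libraries have only 5 to 12 genes above their mean and depleted CD41+ libraries 34 to 44, and the Pol I genes at the top are mixed in both.

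After platelet depletion 11 of the 45 transcripts rose and 0 fell when both CD41 fractions were averaged, among them those of nucleolin, nucleophosmin and at least 1 factor of every role described below except RNA polymerase I transcription. The other 34 did not pass, and 41 had a positive log2 fold change, with a median of 0.32 (range -0.21 to 1.07). Over all genes tested, percent called higher was 3.6%, percent called lower 2.73% and percent called either way 6.33%, and the median was -0.01. By other tools, DESeq2 called 15 of the 45 higher (6.04% of all genes) and limma voom with sample weights 13 (4.31% of all genes), with 0 of the 45 lower in both. In edgeR, 21 of the 45 had an unadjusted p below 0.05, as did 21.3% of all genes. The number called depended on single libraries, and so did the number over all genes. Of the 45 it was 3 when replicate 1 or 2 of control CD41+ or replicate 3 of depleted CD41- cells was left out, where the genes called higher over the whole table went from 484 to 172, 234 and 220. It was 4 when replicate 1 of depleted CD41- cells was. It was 5 after leaving out depleted CD41+ replicate 3, and 6 and 7 after leaving out replicates 2 and 3 of control CD41- cells, while the median over the 45 genes stayed between 0.29 and 0.37 in all 11 fits that left out a library. All depleted libraries lay above all control libraries for 6 of the 45 genes (Npm1, Nop14, Nolc1, Bop1, Pes1 and Dnajc2), against 2.03% of all genes.

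**Figure D2:**
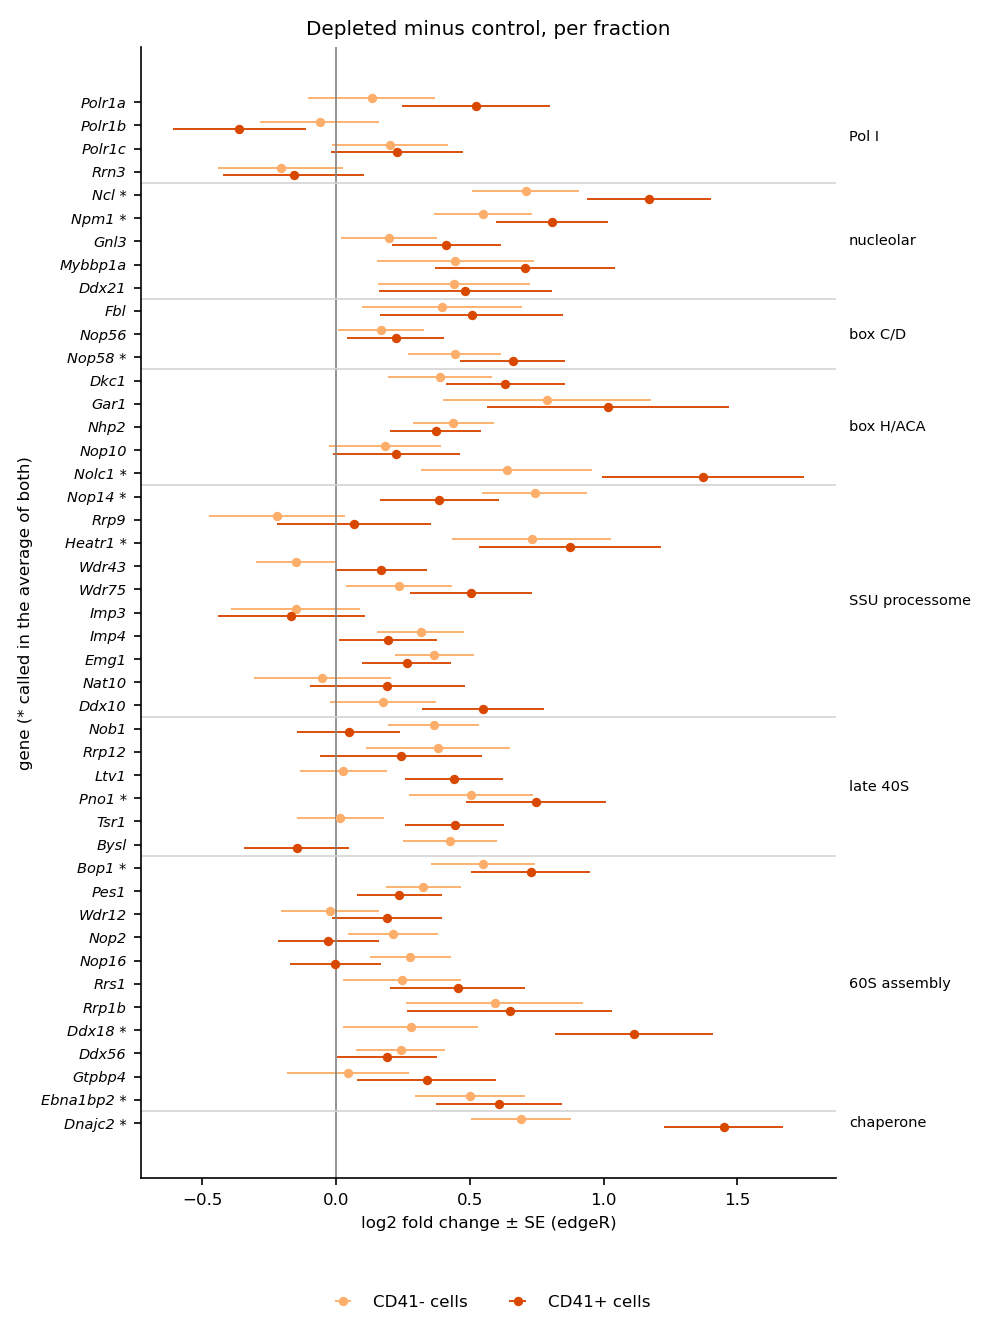
Log2 fold change of depleted against control mice (x axis, ± SE) for each of the 45 genes (rows, grouped by role), with CD41- cells in light and CD41+ cells in dark orange; asterisks mark the 11 genes called in the average of both fractions. Most points lie right of 0, the median being 0.32 in CD41- and 0.41 in CD41+ cells, with Dnajc2, Nolc1, Ncl and Ddx18 farthest to the right in CD41+ cells.

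None of the 4 genes of RNA polymerase I transcription was called, and their median was 0.02. Polr1a, the largest subunit of the enzyme, had 37.4, 34.0 and 44.3 CPM in control CD41- libraries, 27.8 and 24.8 in control CD41+, 36.6, 49.0 and 41.6 in depleted CD41- and 30.0, 47.0 and 34.4 in depleted CD41+ libraries. Its depleted and control libraries overlapped, and the difference was 0.33 ± 0.18 (adjusted p = 0.322). Polr1b, another large subunit, stood at -0.21 ± 0.17, Polr1c, a subunit shared with RNA polymerase III, at 0.21 ± 0.16, and Rrn3, the factor that joins the polymerase to its promoter, at -0.18 ± 0.18 (adjusted p from 0.492 to 0.603). The sum of the 4 was 266 to 361.5 CPM in control CD41-, 345.5 to 398 CPM in control CD41+, 277 to 359 CPM in depleted CD41- and 334 to 390.2 CPM in depleted CD41+ libraries, so the groups overlapped. Whether the Pol I genes responded less than the other roles was not tested.

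Among 5 abundant nucleolar proteins, 2 rose and 3 did not pass, and the median was 0.58. Ncl encodes nucleolin, which binds nascent ribosomal RNA (ENSMUSG00000026234, chromosome 1, 86344719 to 86359400, minus strand; positions of GRCm38). It had 651.5, 421 and 520.5 CPM in control CD41- libraries, 404 and 466 in control CD41+, 1011, 635 and 956 in depleted CD41- and 849, 1039 and 1047 in depleted CD41+ libraries. All depleted CD41+ libraries were above all control libraries, and of the depleted CD41- libraries only replicate 2 fell within the control range. Ncl rose by 0.94 ± 0.15, 1.92-fold (adjusted p = 0.00347), and passed in all 11 fits that left out a library (highest adjusted p = 0.0288, without control CD41+ replicate 1). Npm1 encodes nucleophosmin, a chaperone of the outer nucleolus that carries pre-ribosomal particles, and had the highest level per kilobase of the 45 genes, 1010.3 CPM per kilobase of its principal transcript. Its libraries held 1269, 1426 and 1005 CPM in control CD41- libraries, 1330.3 and 1159 in control CD41+, 1879, 1512.5 and 2026 in depleted CD41- and 2616, 1784 and 2140.1 in depleted CD41+ libraries. Here the depleted and control libraries did not overlap at all. Npm1 rose by 0.68 ± 0.14 (adjusted p = 0.0117), and the call was lost without replicate 2 of control CD41+ cells (adjusted p = 0.0519). Gnl3, which encodes the GTPase nucleostemin, had 96.5, 98.2 and 91.9 CPM in control CD41- libraries, 96.5 and 101 in control CD41+, 134, 81.7 and 113 in depleted CD41- and 129, 135 and 131 in depleted CD41+ libraries. Only its depleted CD41+ libraries were all above the controls, and the difference of 0.31 ± 0.13 did not pass (adjusted p = 0.206). Mybbp1a, a nucleolar partner of transcription and pre-RNA processing factors, stood at 0.58 ± 0.22 and the RNA helicase gene Ddx21 at 0.46 ± 0.22 (adjusted p = 0.152 and 0.235).

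Of the 3 core proteins of box C/D snoRNPs, which guide ribose methylation, 1 rose. Nop58, a scaffold of the particle, had 199, 171 and 217 CPM in control CD41- libraries, 194 and 213 in control CD41+, 320.2, 207 and 269.8 in depleted CD41- and 356, 312 and 299.5 in depleted CD41+ libraries. Depleted CD41- replicate 2 lay within the control range and all other depleted libraries above it. Nop58 rose by 0.55 ± 0.13 (adjusted p = 0.0247), and the call was lost without replicate 1 or 2 of control CD41+ cells, or replicate 1 or 3 of depleted CD41- cells, the highest adjusted p being 0.0992 (without control CD41+ replicate 1). Its partner Nop56 stood at 0.20 ± 0.12 (adjusted p = 0.376). Fbl encodes fibrillarin, the methyltransferase itself, and had 22.0, 42.7 and 25.3 CPM in control CD41- libraries, 28.3 and 37.4 in control CD41+, 29.0, 39.8 and 50.1 in depleted CD41- and 35.6, 51.7 and 50.7 in depleted CD41+ libraries. Its groups overlapped throughout, at 0.45 ± 0.23 (adjusted p = 0.271). Transcripts near-identical to Fbl exist in the pseudogene Gm5812 and in an exon of Tulp4, with 50 and 47 counts over all libraries.

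Of 5 genes of the box H/ACA snoRNPs, which guide pseudouridylation, and their chaperone, 1 rose, 4 did not pass, and the median was 0.51. Nolc1, the chaperone Nopp140 that brings snoRNPs through the nucleolus, had 97.9, 37.2 and 98.3 CPM in control CD41- libraries, 39.8 and 70.2 in control CD41+, 134, 118 and 111 in depleted CD41- and 105, 147 and 171 in depleted CD41+ libraries. All depleted libraries were above all control libraries, although control CD41- replicate 2 and control CD41+ replicate 1 were far below the other controls. Nolc1 rose by 1.00 ± 0.25 (adjusted p = 0.0298), and the call was lost without replicate 1 of control CD41+ cells, or replicate 1 or 3 of depleted CD41- cells, or replicate 2 or 3 of depleted CD41+ cells, the highest adjusted p being 0.136 (without control CD41+ replicate 1). Just outside the threshold were Nhp2 at 0.41 ± 0.11 (adjusted p = 0.0501) and Dkc1, the pseudouridine synthase dyskerin, at 0.51 ± 0.15 (adjusted p = 0.0546). Gar1 and Nop10, the remaining core proteins, stood at 0.90 ± 0.30 and 0.20 ± 0.16 (adjusted p = 0.0899 and 0.497). Gar1 was the member with the fewest counts.

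Of 10 genes of the small subunit processome, 2 rose and 8 did not pass, and the median was 0.29. Nop14, a scaffold protein of the processome, had 46.2, 39.3 and 37.0 CPM in control CD41- libraries, 46.2 and 49.0 in control CD41+, 67.1, 68.7 and 69.1 in depleted CD41- and 54.5, 55.9 and 75.2 in depleted CD41+ libraries. Its depleted and control libraries did not overlap, and the 3 depleted CD41- libraries lay close together. Nop14 rose by 0.56 ± 0.15 (adjusted p = 0.0380), and of the 11 fits that left out a library the call held in 3, without replicate 1 of control CD41- cells, or replicate 1 or 2 of depleted CD41+ cells, and the highest adjusted p was 0.129 (without control CD41+ replicate 1). Heatr1, the homologue of yeast Utp10, had 18.2, 22.8 and 17.8 CPM in control CD41- libraries, 25.7 and 18.3 in control CD41+, 33.4, 29.1 and 35.0 in depleted CD41- and 22.2, 47.4 and 47.8 in depleted CD41+ libraries. Only depleted CD41+ replicate 1 lay within the control range. Heatr1 rose by 0.80 ± 0.23, with an adjusted p of 0.0499 just below the threshold, and of the 11 fits that left out a library the call held in 1, without replicate 1 of depleted CD41+ cells, and the highest adjusted p was 0.182 (without control CD41+ replicate 2). The others ranged from Wdr75, a WD-repeat protein of the complex, at 0.37 ± 0.15, the helicase gene Ddx10 at 0.36 ± 0.15 and the methyltransferase gene Emg1 at 0.32 ± 0.11 to Imp3 at -0.16 ± 0.18. Between these were Imp4 at 0.26, the acetyltransferase gene Nat10 at 0.07, Wdr43 at 0.01 and Rrp9 at -0.08 (adjusted p from 0.110 to 0.974 over the 8).

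Late maturation of the small subunit was represented by 6 genes, of which 1 rose, with a median of 0.23. Pno1, the partner of the nuclease Nob1 (ENSMUSG00000020116, chromosome 11, 17203198 to 17211568, minus strand), had 67.4, 58.9 and 45.2 CPM in control CD41- libraries, 85.2 and 90.3 in control CD41+, 88.2, 62.4 and 92.2 in depleted CD41- and 198, 113 and 137 in depleted CD41+ libraries. Depleted CD41- replicate 2 lay within the control CD41- range, and the depleted CD41+ libraries were the highest of all. Pno1 rose by 0.63 ± 0.18 (adjusted p = 0.0487), and of the 11 fits that left out a library the call held in 3, without replicate 1 of control CD41- cells, or replicate 2 of depleted CD41- cells, or replicate 2 of depleted CD41+ cells, and the highest adjusted p was 0.154 (without control CD41+ replicate 1). Nob1, which makes the final cut of small subunit RNA, stood at 0.21, the export factor gene Rrp12 at 0.31, Ltv1 at 0.24, the GTPase-like factor gene Tsr1 at 0.23 and Bysl at 0.14 (adjusted p from 0.287 to 0.590).

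Assembly of the large subunit was represented by 11 genes, of which 3 rose and 8 did not pass, all with positive fold changes and a median of 0.28. Bop1, with Pes1 and Wdr12 a member of the PeBoW complex that matures large subunit RNA, had 64.6, 71.5 and 50.6 CPM in control CD41- libraries, 71.6 and 72.0 in control CD41+, 85.8, 83.8 and 104 in depleted CD41- and 142, 121 and 96.7 in depleted CD41+ libraries. Its depleted and control libraries did not overlap. Bop1 rose by 0.64 ± 0.15 (adjusted p = 0.0218), and the call was lost without replicate 1 or 2 of control CD41+ cells, or replicate 3 of depleted CD41- cells, the highest adjusted p being 0.0828 (without control CD41+ replicate 1). Pes1 also showed no overlap, with control libraries at 114 to 147 CPM and depleted libraries at 147 to 177 CPM, but its difference of 0.28 ± 0.11 did not pass (adjusted p = 0.139), and Wdr12 stood at 0.08 ± 0.14. The RNA helicase gene Ddx18 had 39.3, 32.5 and 38.4 CPM in control CD41- libraries, 23.2 and 33.0 in control CD41+, 55.2, 35.2 and 43.0 in depleted CD41- and 44.5, 62.5 and 73.1 in depleted CD41+ libraries. It rose by 0.70 ± 0.19 (adjusted p = 0.0472), with depleted CD41- libraries overlapping the controls, and of the 11 fits that left out a library the call held in 2, without replicate 2 of depleted CD41- cells, or replicate 1 of depleted CD41+ cells, and the highest adjusted p was 0.191 (without control CD41+ replicate 1). Ebna1bp2, a nucleolar assembly factor, had 76.7, 68.1 and 54.0 CPM in control CD41- libraries, 75.3 and 77.4 in control CD41+, 107, 77.1 and 96.3 in depleted CD41- and 116, 92.7 and 142 in depleted CD41+ libraries. It rose by 0.55 ± 0.16 (adjusted p = 0.0490), with depleted CD41- replicate 2 within the control range, and of the 11 fits that left out a library the call held in 3, without replicate 1 of control CD41- cells, or replicate 2 of depleted CD41- cells, or replicate 2 of depleted CD41+ cells, and the highest adjusted p was 0.152 (without control CD41+ replicate 1). The other members of this role were Rrp1b at 0.62, Rrs1 at 0.35, the helicase gene Ddx56 at 0.22, the GTPase gene Gtpbp4 at 0.19, Nop16 at 0.14 and the RNA methyltransferase gene Nop2 at 0.09 (adjusted p from 0.171 to 0.732).

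The largest log2 fold change among the 45 genes was that of Dnajc2 (ENSMUSG00000029014, chromosome 5, 21757267 to 21785251, minus strand), which encodes a J-domain chaperone known to sit on ribosomes beside the exit of the growing protein chain. It had 74.5, 67.8 and 73.0 CPM in control CD41- libraries, 41.1 and 53.9 in control CD41+, 136, 93.8 and 118 in depleted CD41- and 126, 115 and 148 in depleted CD41+ libraries. All 6 depleted libraries exceeded all 5 control libraries, and the 2 control CD41+ libraries were the lowest of all. Dnajc2 rose by 1.07 ± 0.14, 2.10-fold (adjusted p = 0.00126), and passed in all 11 fits that left out a library (highest adjusted p = 0.0144, without control CD41+ replicate 1).

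**Figure D3:**
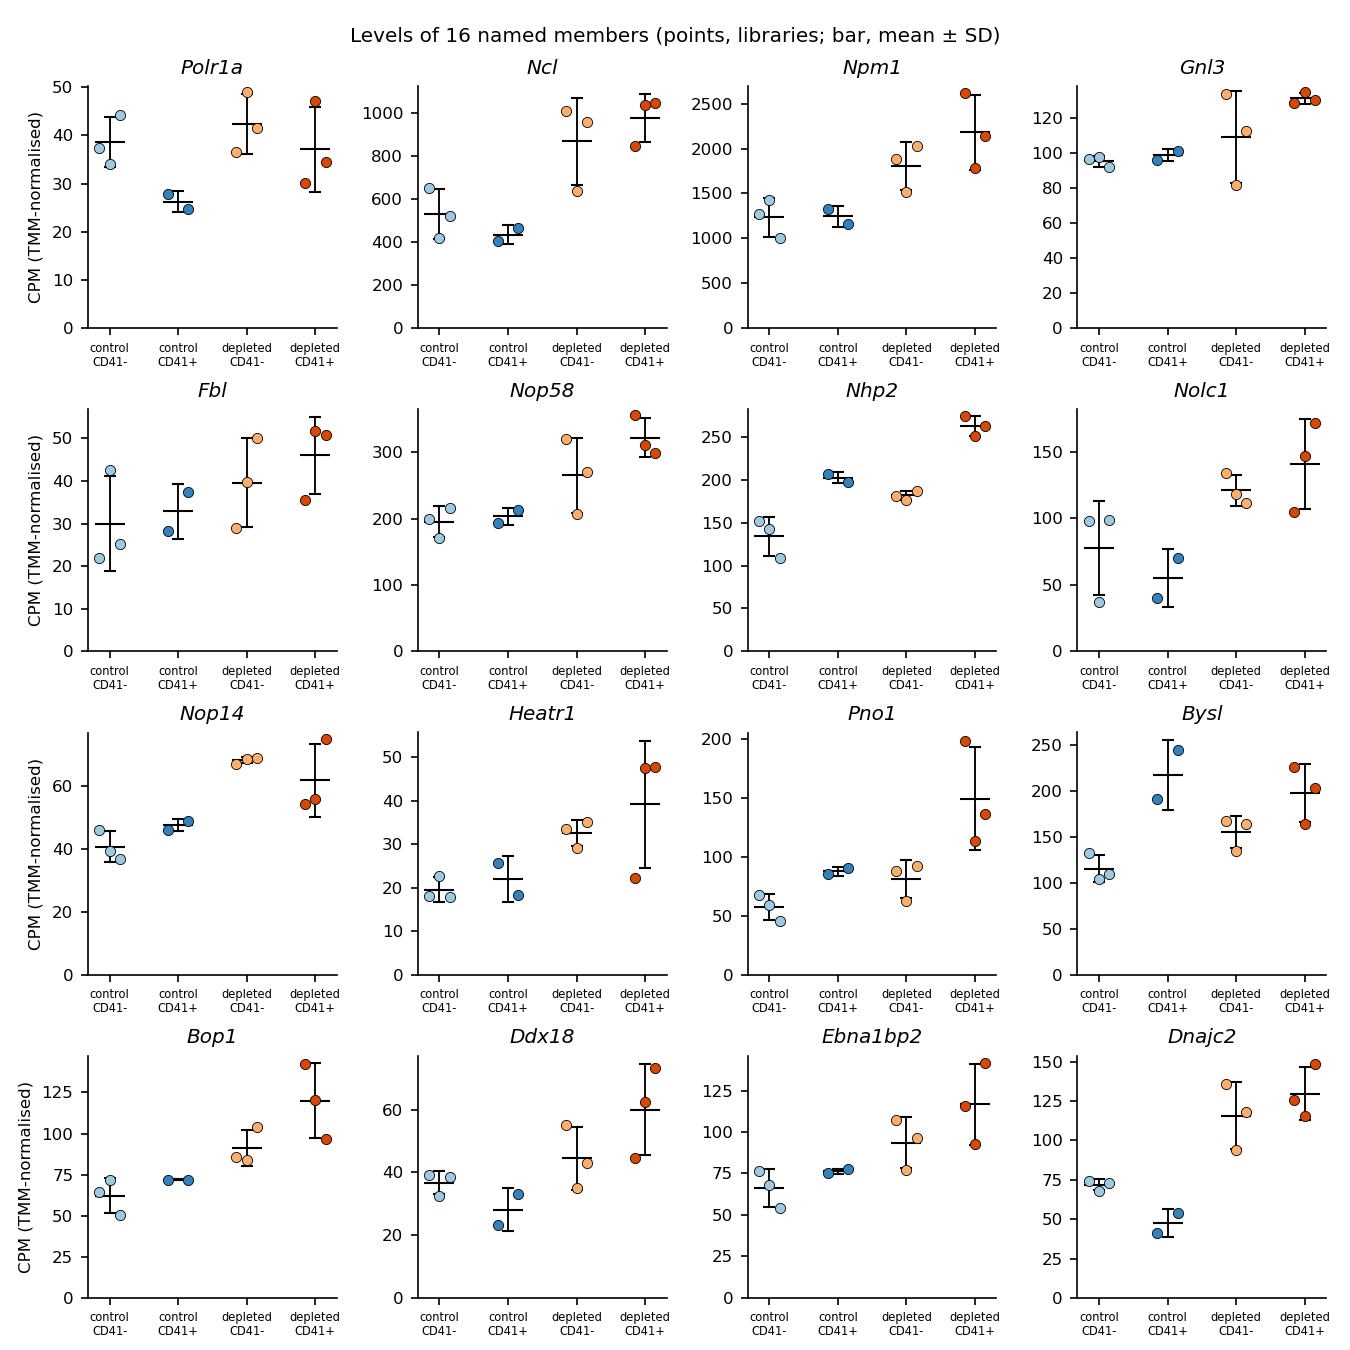
CPM of 16 of the 45 genes in each library (points, coloured by group) with the group mean and SD (bars); n is 3, 2, 3 and 3 libraries from left to right and every y axis starts at 0. Npm1, Nolc1, Nop14, Bop1 and Dnajc2 have all depleted points above all control points, while for Nhp2 all CD41+ points lie above all CD41- points.

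The response was then read in each fraction. In CD41- cells 0 of the 45 genes were called by edgeR in either direction, where percent called higher over all genes was 2.3%, percent called lower 0.892% and percent called either way 3.19%. At an unadjusted p below 0.05 there were 13 (16.9% of all genes), which became 7 when control CD41- replicate 3 or depleted CD41- replicate 1 was left out and 5 when depleted CD41- replicate 3 was. DESeq2, limma voom and the fit with no count filter each called 3 of the 45 higher, where they called 3.97%, 2.82% and 2.45% of all genes higher. The smallest adjusted p-values were those of Nop14 at 0.74 ± 0.20 (0.0560), Dnajc2 at 0.69 ± 0.19 (0.0623) and Ncl at 0.71 ± 0.20 (0.0748). The median over the 45 genes was 0.32 against -0.03 over all genes, and 38 fold changes were positive. All depleted CD41- libraries lay above all control CD41- libraries for 17 of the 45 genes, where percent called by this rule over all genes was 12.9%. Wdr43, a processome protein, was the reverse, with 213, 206 and 210.5 CPM in depleted and 255.5, 223 and 219 CPM in control CD41- libraries.

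In CD41+ cells 1 gene was called higher and 0 lower, where percent called higher over all genes was 0.0372%, percent called lower 0.0669% and percent called either way 0.104%. This was Dnajc2, at 47.5 ± 9.04 CPM in control (n = 2) and 129.7 ± 16.9 CPM in depleted CD41+ libraries (n = 3). Its log2 fold change was 1.45 ± 0.22, 2.73-fold (adjusted p = 0.0239), and the call was lost without replicate 1 or 2 of control CD41+ cells, or replicate 1 or 3 of depleted CD41- cells, or replicate 2 or 3 of depleted CD41+ cells, the highest adjusted p being 0.241 (without control CD41+ replicate 1). There were 2 calls when depleted CD41+ replicate 1 was left out. DESeq2 called 5 of the 45 genes higher (1.06% of all genes), the fit with no count filter 4 (0.693% of all genes), and the fit on the CD41+ libraries alone 0, where it called 0 of all genes in either direction. The median was 0.41 against -0.01 over all genes, and 39 fold changes were positive. An unadjusted p below 0.05 was found for 17 of the 45 and for 12.2% of all genes, and the 17 became 9 when control CD41+ replicate 1 was left out, 10 when depleted CD41+ replicate 3 was and 11 on the CD41+ libraries alone. Nolc1 at 1.37 ± 0.38 (adjusted p = 0.180), Ncl at 1.17 ± 0.23 (0.0835) and Ddx18 at 1.11 ± 0.30 (0.167) had the next largest fold changes. All depleted CD41+ libraries lay above both control CD41+ libraries for 26 of the 45 genes, where percent called by this rule over all genes was 13.2%.

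Between the fractions, 35 of the 45 genes had positive fold changes in both, against 30.3% of all genes, 3 had negative ones in both (Polr1b, Rrn3 and Imp3), and 32 had the larger fold change in CD41+ cells. The difference of the responses itself was called for 0 of the 45 genes by edgeR, as for 0 of all 13448 genes, and for 0 by DESeq2 and by limma voom. At an unadjusted p below 0.05 there were 3, against 6.13% of all genes. These were Dnajc2 at 0.76 ± 0.28 (adjusted p = 0.660) and Ddx18 at 0.83 ± 0.38 (adjusted p = 0.803), with the larger response in CD41+ cells, and Bysl at -0.57 ± 0.26 (adjusted p = 0.802), with the larger response in CD41- cells. The median difference of 0.18 (range -0.57 to 0.83) became 0.068 when depleted CD41- replicate 2 was left out, and 0.076 and 0.085 when replicate 1 of control CD41- or of control CD41+ cells was.

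Stem cells with surface CD41 were compared with those without it in the same way. Averaged over both treatments, 3 of the 45 genes were higher and 0 lower in CD41+ cells, where percent called higher over all genes was 2.73%, percent called lower 2.65% and percent called either way 5.38%. Of the 45 fold changes 39 were positive, with a median of 0.19 against -0.03 over all genes. Scaling by library size alone gave 0.10 against -0.12, and the split of all called genes moved from 367 higher and 357 lower to 250 higher and 445 lower. DESeq2 called 8 of the 45 higher, where it called 5.76% of all genes higher. The 3 genes were Nhp2, Pno1 and Bysl, of which 2 act in late maturation of the small subunit, and the count was 1 without control CD41+ replicate 2.

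**Figure D4:**
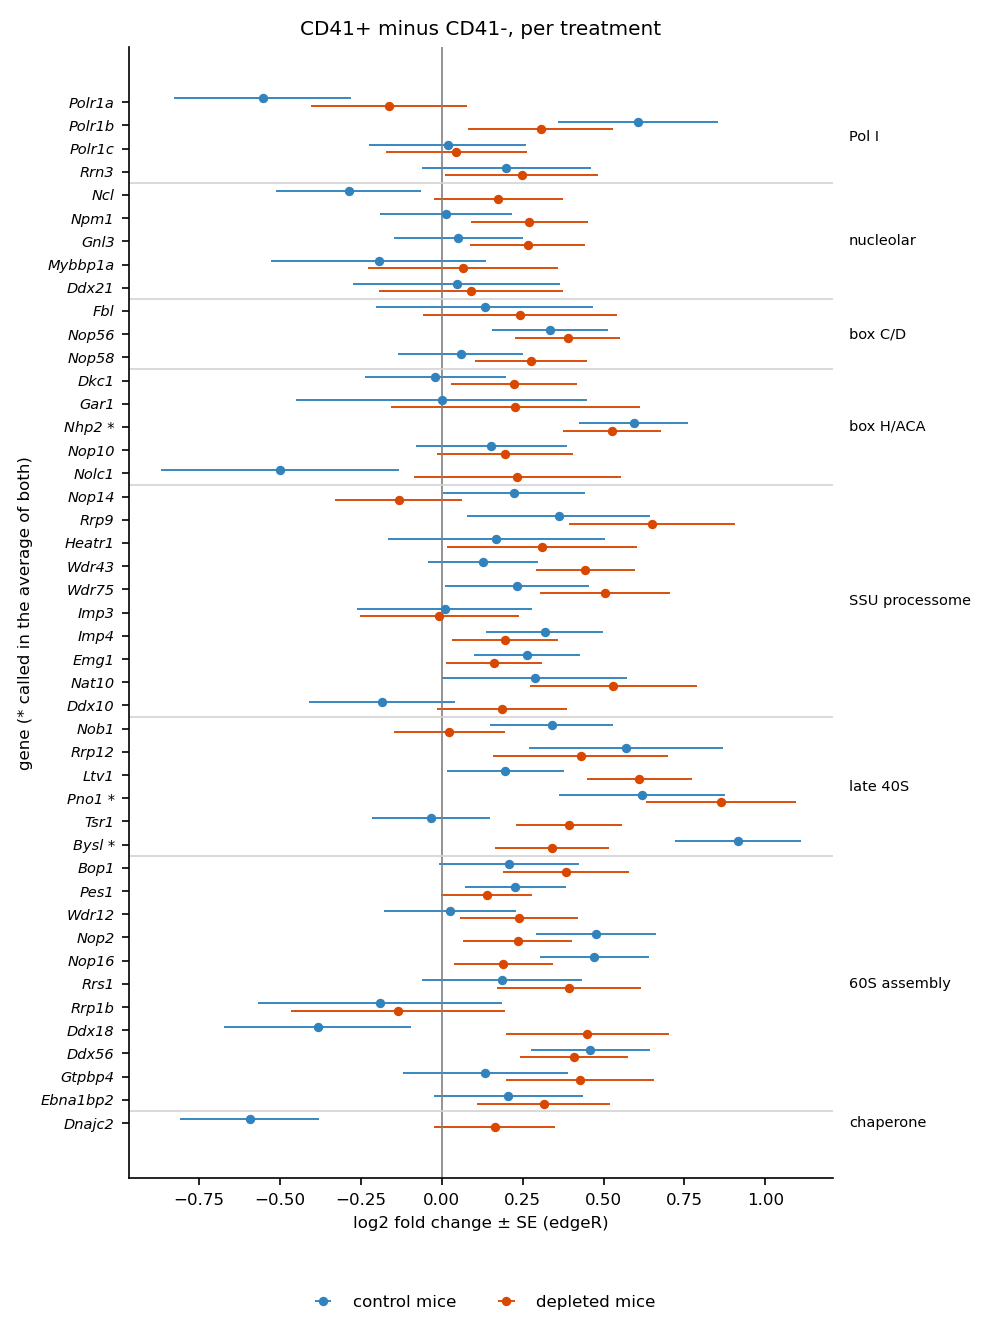
Log2 fold change of CD41+ against CD41- cells (x axis, ± SE) for each of the 45 genes (rows, grouped by role), with control mice in blue and depleted mice in orange; asterisks mark the 3 genes called in the average of both treatments. Late small subunit factors lie to the right, with a median of 0.45 on average, while Dnajc2 stands at -0.59 in control and 0.16 in depleted mice.

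Nhp2 (ENSMUSG00000001056, chromosome 11, 51619735 to 51623714, plus strand), a core protein of box H/ACA snoRNPs that is also part of telomerase, had 152, 142 and 108 CPM in control CD41- libraries, 207 and 198 in control CD41+, 181, 177 and 187 in depleted CD41- and 274, 250.5 and 262 in depleted CD41+ libraries. All 5 CD41+ libraries exceeded all 6 CD41- libraries, as was the case for 1 other of the 45 genes, Ddx56, and for 1.49% of all genes. The difference was 0.56 ± 0.11 (adjusted p = 0.0131), and it passed in all 11 fits that left out a library. Pno1, whose values are given above, differed by 0.74 ± 0.17 (adjusted p = 0.0243), and the call was lost without replicate 3 of control CD41- cells, or replicate 1 or 2 of control CD41+ cells, or replicate 2 of depleted CD41- cells, the highest adjusted p being 0.0813 (without control CD41+ replicate 2). Bysl (ENSMUSG00000023988, chromosome 17, 47599331 to 47611492, minus strand) encodes bystin, a factor bound to the pre-small subunit, and had 133, 104 and 110.2 CPM in control CD41- libraries, 191 and 245 in control CD41+, 168, 135 and 164 in depleted CD41- and 226, 164 and 204 in depleted CD41+ libraries. CD41+ libraries were above CD41- libraries in control mice and overlapped them in depleted mice. Its difference was 0.63 ± 0.13 on average (adjusted p = 0.0151), and the call was lost without replicate 2 of control CD41+ cells (adjusted p = 0.0787). Bysl overlaps Ccnd3, a D-type cyclin gene on the opposite strand, by 361 exonic bases. Over all libraries Ccnd3 had 27613 counts and Bysl 7716, and how reads from the overlap were assigned was not tested.

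In control mice alone Bysl was the 1 gene called higher, with 0 lower, where percent called higher over all genes was 1.58%, percent called lower 1.04% and percent called either way 2.62%. The difference was 0.92 ± 0.19, 1.89-fold (adjusted p = 0.0242), and the call was lost without replicate 2 or 3 of control CD41- cells, or replicate 2 of control CD41+ cells, the highest adjusted p being 0.216 (without control CD41+ replicate 2). DESeq2 called 2 of the 45 higher (3.9% of all genes) and the fit on control libraries alone 0 (0.698% of all genes). All control CD41+ libraries lay above all control CD41- libraries for 17 of the 45 genes, where percent called by this rule over all genes was 17.4%. Dnajc2 and Polr1a were below instead, at -0.59 ± 0.22 and -0.55 ± 0.27 (adjusted p = 0.151 and 0.292). In depleted mice 0 of the 45 genes were called by edgeR, where percent called higher over all genes was 0.0669%, percent called lower 0.126% and percent called either way 0.193%, with 3 called higher by DESeq2 (0.833% of all genes) and 0 by limma voom (0.617%). At an unadjusted p below 0.05 there were 9 (9.18% of all genes), which became 4 when depleted CD41- replicate 2 was left out and 14 when depleted CD41- replicate 1 was. All depleted CD41+ libraries lay above all depleted CD41- libraries for 13 of the 45 genes, where percent called by this rule over all genes was 8.35%. The largest difference there was that of Pno1, 0.86 ± 0.23 (adjusted p = 0.180). The median was 0.17 in control mice, which became 0.10 when control CD41- replicate 3 was left out, and 0.25 in depleted mice, and 32 of the 45 genes were positive in both, against 31.1% of all genes.

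By role, the late small subunit factors had the highest median CD41 difference, 0.45, with 2 of 6 called and all 6 positive. Ltv1 stood at 0.40 ± 0.12 (adjusted p = 0.0671), Rrp12 at 0.50 ± 0.20, Nob1 at 0.18 and Tsr1 at 0.18. Large subunit assembly had a median of 0.28, with 10 of 11 positive and 0 called, led by Ddx56 at 0.43 ± 0.12 (adjusted p = 0.0585). The small subunit processome had a median of 0.25, with 10 of 10 positive and 0 called. Abundant nucleolar proteins had a median of 0.07, Ncl standing at -0.06 and Npm1 at 0.14, box C/D proteins 0.19, box H/ACA proteins 0.11 and Pol I genes 0.13. These medians were not tested against each other.

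Further ribosome biogenesis genes outside the 45 were taken from lists of known factors, and whether their shares differed from those of the 45 was not tested. Like the 45, these lists were chosen with earlier results of these data known, so they are not an independent check. Of 110 tested, 13 (11.8%) were higher and 0 lower after depletion on average, where 3.6% of all genes were higher, 86 were positive, and the median was 0.27. Among 41 small subunit factors 3 were higher, Noc4l at 0.67 ± 0.13 (adjusted p = 0.00861), the helicase gene Ddx52 at 0.61 ± 0.13 and Utp14a at 0.84 ± 0.23. Among 49 large subunit factors 8 were higher, led by Lyar, a nucleolar zinc finger protein, at 1.08 ± 0.20 (adjusted p = 0.00693), the helicase gene Ddx27 at 0.61 ± 0.13 and Rsl1d1 at 0.53 ± 0.12. Among 8 snoRNP assembly factors 2 were higher, Ruvbl1 at 0.42 and Ruvbl2 at 0.60, which form a ring-shaped ATPase. None of 12 further Pol I transcription genes was called, with a median of 0.21. In CD41- cells 4 of the 110 (3.64%, against 2.3% of all genes) were higher and 0 lower (Ruvbl2, Noc4l, Ddx52 and Lyar), and in CD41+ cells 0 were called. With CD41, 2 of the 110 (1.82%, against 2.73% of all genes) were higher on average, Nop9 at 0.69 ± 0.13 and Rrp8 at 0.50 ± 0.13, and 1 was lower, the Pol I factor gene Taf1d at -0.62 ± 0.17 (adjusted p = 0.0103, 0.0440 and 0.0440).

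Markers of other features of the cells also differed between the groups, but not all in the pattern of the ribosome biogenesis set. For cell-cycle genes the median log2 depletion difference was 1.33 in CD41- and 0.24 in CD41+ cells. For the ribosome biogenesis set it was 0.32 and 0.41. The median CD41 difference of cell-cycle genes was 1.19 in control and 0.17 in depleted mice, against 0.17 and 0.25 for the set. Of 20 cell-cycle genes, 15 were higher and 0 lower after depletion on average, 17 in CD41- cells and 0 in CD41+ cells, and 16 were higher with CD41 in control mice and 0 in depleted mice. Their summed level was 4084, 3981 and 3238 CPM for control CD41-, 7318 and 8142.5 CPM for control CD41+, 8253, 8218 and 7452.5 CPM in depleted CD41- and 9453, 9432 and 8111 CPM in depleted CD41+ libraries, with none of the 20 at 0 in any library. The order of the group means was thus the same as for the ribosome biogenesis sum. The cell-cycle sum of control CD41+ libraries lay within 7318 to 8142.5 CPM and that of depleted CD41- libraries within 7452.5 to 8253 CPM. The ribosome biogenesis sums of these groups did not overlap, but Npm1 and Ncl supply much of them. The median deviation of the ribosome biogenesis genes did overlap, at -0.105 in depleted CD41- replicate 2 against -0.082 and -0.044 in control CD41+ libraries. Of 12 megakaryocyte and platelet genes, 11 were tested and 5 were lower and 0 higher after depletion, the sums being 896 to 1404, 937 to 1462, 497 to 804 and 469 to 773 CPM in the same order of groups. Of 9 sort gate and stem cell genes 2 were lower and 0 higher after depletion, with sums of 1507 to 1779, 1085.5 to 1431, 925 to 1224 and 613 to 1102 CPM. Over all genes, 2.73% were lower after depletion on average.

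Beside the CD41 differences, sums of 10 endothelial and stromal genes were 21.4 to 33.0, 169 to 346, 28.6 to 370.3 and 316 to 642 CPM in the same order, with 3 to 5 of the 10 at 0 in each control CD41- library and none at 0 in the CD41+ libraries. Sums of 12 neutrophil genes were 8463 to 13922, 25331 to 84528, 4113 to 37069.5 and 14223 to 53432 CPM, and overlapped between depleted and control libraries. Sums of 8 macrophage genes were 62.0 to 207, 310.5 to 357, 99.1 to 347 and 335 to 568 CPM, and those of 9 erythroid genes 283 to 1222, 1855 to 2148, 278 to 1708 and 546 to 1636 CPM. Both were higher in CD41+ than in CD41- libraries of control mice without overlap and overlapped in depleted mice. Mitochondrially encoded and nuclear long RNAs, a sign of RNA quality, summed to 31602 to 40357, 14938 to 21227, 29383 to 33166 and 18689.6 to 27636 CPM, lower in CD41+ than in CD41- libraries. The part of these features in the differences of the 45 genes was not tested.

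**Figure D5:**
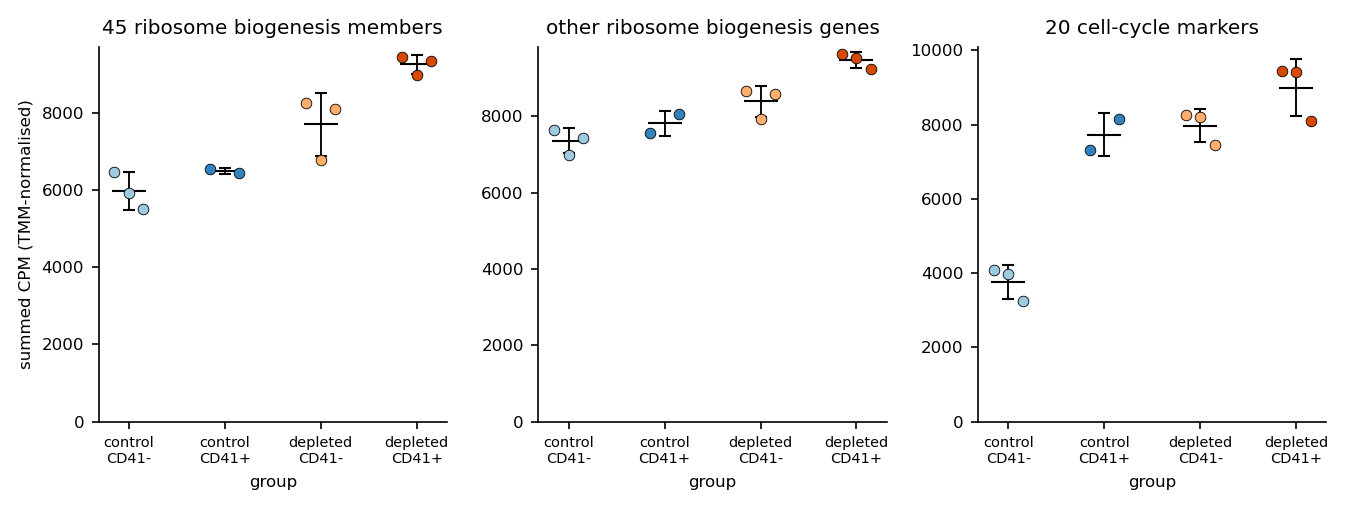
Summed CPM (y axis, from 0) of the 45 ribosome biogenesis genes, of the 110 other ribosome biogenesis genes and of 20 cell-cycle markers in each library (points) with group mean and SD (bars); n is 3, 2, 3 and 3. The sum of the 45 genes steps up from control to depleted mice in both fractions, from 5495 to 6535 CPM in controls to 6766 to 9450 CPM after depletion. Npm1 and Ncl supply much of this sum. The median deviation of the 45 genes from their own means overlapped between control CD41+ and depleted CD41- libraries. The sum of the 110 others overlaps between control CD41+ (7573 to 8048 CPM) and depleted CD41- libraries (7926 to 8663 CPM). The cell-cycle sum is lowest in control CD41- cells and overlaps between control CD41+ and depleted libraries.

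Myc and Mycn encode known activators of ribosome biogenesis genes. Myc stood at 252 to 365 CPM and Mycn at 262 to 400.4 CPM over the 11 libraries. The depletion differences were -0.08 ± 0.12 (adjusted p = 0.772) and -0.09 ± 0.14 (adjusted p = 0.770), the CD41 differences 0.11 ± 0.12 and -0.03 ± 0.14, and none of 6 regulators listed (with Max, Trp53, Mdm2 and Cdkn1a) was called in any of the 7 comparisons. Protein levels were not measured.

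Promoter sequences were searched for the E-box CACGTG, the preferred motif of MYC and MAX, which reads the same on both strands. Of the 45 genes 39 had an entry in the RefSeq promoter table of GRCm38.p6, each covering 250 bases before to 50 bases after the start site. Dnajc2, Npm1 and Bop1, all called higher after depletion, had no entry and were not searched, and nor were Fbl, Rrs1 and Rrp12. The E-box occurred in 9 of the 39 genes searched (23.1%), against 2187 of 27025 genes of the table (8.09%). In the 250 bases before the start alone it occurred in 3 of 39 (7.69%), against 6.86% of all genes, so that most matches of the 45 genes lay just after the start. The matches were in Imp4, Nop2, Ltv1, Pes1, Pno1, Mybbp1a, Tsr1, Rrn3 and Wdr43, of which Pno1 rose after depletion and with CD41 while Rrn3 and Wdr43 stood at -0.18 and 0.01. The following windows show the motif, in capitals, in the called gene, in genes that did not pass, and on either side of the start, each 5′ to 3′ on the gene's own strand. Pno1, with the motif beginning 38 bases after the start, is at chr11:17211540-17211569 on the minus strand, and Tsr1, 25 bases after, at chr11:74898092-74898121 on the plus strand. Wdr43, 18 bases after, is at chr17:71616220-71616249, Nop2, 60 bases before, at chr6:125131796-125131855, and Rrn3, 48 bases before, at chr16:13780624-13780683, all on the plus strand.
Pno1: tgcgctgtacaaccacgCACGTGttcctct
Tsr1: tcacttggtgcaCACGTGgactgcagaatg
Wdr43: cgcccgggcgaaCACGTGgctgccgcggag
Nop2: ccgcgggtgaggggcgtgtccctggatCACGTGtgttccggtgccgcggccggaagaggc
Rrn3: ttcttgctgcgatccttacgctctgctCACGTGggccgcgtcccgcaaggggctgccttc
A match describes these letters only and shows no binding.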

How the data were processed

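RNA of 1000 sorted stem cells per sample was reverse transcribed with template switching and amplified by PCR, per the labels' protocols. The deposited values are whole-number counts per gene made by the authors. The submitters' processing notes name cutadapt, STAR and HTSeq 0.6.1p1 and the builds GRCm38 and mm10, while strand setting and annotation were not given in the sources used here. The 11 libraries were grouped by treatment and CD41 from their labels. Symbols, positions and exons came from GENCODE M21. Genes were kept by filterByExpr (minimum count 10, total 15; 99.7% of counts), scaled by TMM and fitted in edgeR 4.0.16 (R 4.3.3) with robust quasi-likelihood and 1 coefficient per group, for 7 comparisons, each adjusted by Benjamini-Hochberg over 13448 genes. Standard errors were derived from the log2 fold change and its F statistic.

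The 45 genes and all lists were chosen with earlier results of these data known. Values are given for each library for the 13 genes called in any comparison and for Fbl, Gnl3 and Polr1a, which with Ncl and Npm1 were always included; of the other ribosome biogenesis genes up to 3 called genes per list and comparison were named, by smallest p, and any further were named with their counts. The alternatives tried were RLE factors, scaling by library size alone, no filter, a fit without robust, DESeq2 1.42.0, limma 3.58.1 voom with sample quality weights, the groups compared only, a replicate block, and leaving out each library. Near-identical transcripts were found with minimap2 2.31. The procedure was tested on simulated data. Replicates differed by more than sampling noise (chi-square per degree of freedom 11.3 to 28.9), so none was counted as a duplicate. Reads without molecular identifiers are not independent molecules. Depth, 0.974 M to 9.95 M counts per library, sets the precision of low genes such as Gar1.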

Additional observations from a re-analysis of the deposited data

How the results depend on the processing

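None of the 2036 recomputed values of single genes and sums reversed its sign while called. By the rule used 1927 were unchanged, 79 lost a call, 29 gained one, and 1 sum moved by more than its spread. A fold change that was called in neither fit was counted as unchanged even where its sign changed. The average CD41 difference of Ncl, for example, was -0.057 and reached 0.029 when a library was left out. After depletion on average, the 11 genes called higher became 7 in the fit without robust and 3 to 11 when a library was left out. In CD41- cells the 0 became 3 with no filter, in DESeq2 and in voom, and 0 to 1 without a library. In CD41+ cells the 1 became 4 with no filter, 5 in DESeq2, 0 on the groups compared only and 0 to 2 without a library. With CD41 on average, 3 became 8 in DESeq2 and 1 to 3 without a library. In control mice, 1 became 2 in DESeq2, 0 on the groups compared only and 0 to 1 without a library, and the median of 0.17 became 0.055 with library size alone. In depleted mice, 0 became 1 with no filter and 3 in DESeq2. The median difference of the depletion responses ranged from 0.068 to 0.22 without a library, and the share of promoters with the E-box was 7.69% before the start alone. No member was called lower in any of these fits. The causes of these changes were not tested.

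Sample titles carry consecutive numbers, and a replicate block of such pairs (correlations of deviations 0.08, 0.10, 0.23, 0.34 and 0.21) left the CD41 call in control mice at 1 and changed the calls from 0 to 1 in depleted mice (Pno1) and from 3 to 4 on average. With the block the median in control mice was 0.092. The labels state no pairing. No block was fitted for the depletion difference averaged over both fractions, whose test treats the 11 libraries as independent. If the pairs share mice, its p-values do not measure the spread between pools of mice. Leaving 1 control CD41+ library assumes that the remaining one varies like the other groups.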
